A study of Mus musculus with 4 samples.

Results

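Primed epiblast and early lineage factors are transcription factors that mark the step from the pluripotent epiblast toward the germ layers. The set held 10 genes (Otx2, Pou3f1, Zic2, Zic5, Foxd3, Mixl1, Gsc, Lhx1, Sox1 and Pax6), each taken from the array probe sets that carry its symbol and no other. All 10 of 10 were measured, with 11 probe sets of 28853 in the deposited table, among 19938 genes in all. Zic5 had 2 probe sets and the other genes 1 each.

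The study hybridised RNA of 4 mouse cell samples to Affymetrix arrays, 1 array per sample. The induced pluripotent stem (iPS) lines 492B4 and 178B5 are pluripotent cells made from somatic cells, and the embryonic stem (ES) line v6.5 comes from an embryo. All 3 were kept in serum medium on SNL feeder fibroblasts treated with mitomycin C and carrying a puromycin-resistance gene. The fibroblasts (MEF) were embryonic fibroblasts in serum medium, for which the labels name no feeders. Both iPS lines and MEF had a mixed background of DBA/2, C57BL/6 and 129S4, whereas v6.5 was an F1 of 129 with C57BL/6, so strain and cell type cannot be told apart for ES. Each line is 1 sample and the labels describe no repeat cultures, so p-values speak only for the spread among these lines. Passage number, and how the iPS lines were made, were not given in the sources used here.

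Pluripotent cells pass from a naive state, like the early epiblast, to a primed state, like the epiblast just before gastrulation. Otx2, Pou3f1, Foxd3 and the Zic factors take part in that step or mark it. The primitive streak then forms mesoderm and endoderm, where Mixl1, Gsc and Lhx1 act, while Sox1 and Pax6 belong to the neural plate. ES cells in serum are a mixed population in which primed and differentiating cells can coexist with naive ones.

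The deposited values are on a log scale, read here as log2, and each probe set had been centred so that its median over the 4 arrays was 0. They are differences between arrays, not levels, so 0 does not mean absent, a gene's background cannot be judged, and genes cannot be compared in level. In these bulk samples fewer cells of a type and less RNA per cell cannot be told apart. With 1 array per line, precision is limited by how few arrays there are.

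Promoter windows from RefSeq (GRCm38.p6) were at hand for 7 of the 10 genes, with 11 windows of the 250 bases before an annotated start. They are shown for Otx2, the gene that differed most from MEF, and for Sox1, one that did not pass the test. Both strands of all 11 windows were searched for TAATCC, the core site known for the bicoid-type homeodomains of Otx2 and Gsc. It was found in 1 window, upstream of an internal start of Otx2 (chr14:48665110-48665359, minus strand), on the opposite strand to the one printed, and its reverse complement is in capitals.
Otx2 internal start: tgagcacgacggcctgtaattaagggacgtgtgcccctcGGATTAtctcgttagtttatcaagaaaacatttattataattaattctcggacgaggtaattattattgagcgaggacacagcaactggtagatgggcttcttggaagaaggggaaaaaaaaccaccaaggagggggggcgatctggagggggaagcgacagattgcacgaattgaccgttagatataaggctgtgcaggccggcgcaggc
TAATCC was present in 6.25% of all 32851 windows of the table. A match is a description of letters, not a binding site. In the next pair the capitals mark CG dinucleotides, the sites of DNA methylation. The first lies before the outermost start of Otx2 (chr14:48667645-48667894, minus strand) and the second before the start of Sox1 (chr8:12395269-12395518, plus strand).
Otx2 outermost start: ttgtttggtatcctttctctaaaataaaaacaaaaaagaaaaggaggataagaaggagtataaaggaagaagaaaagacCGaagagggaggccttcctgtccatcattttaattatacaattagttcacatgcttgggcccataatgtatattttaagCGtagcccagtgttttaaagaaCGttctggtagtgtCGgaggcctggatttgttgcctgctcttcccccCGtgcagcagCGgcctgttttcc
Sox1 start: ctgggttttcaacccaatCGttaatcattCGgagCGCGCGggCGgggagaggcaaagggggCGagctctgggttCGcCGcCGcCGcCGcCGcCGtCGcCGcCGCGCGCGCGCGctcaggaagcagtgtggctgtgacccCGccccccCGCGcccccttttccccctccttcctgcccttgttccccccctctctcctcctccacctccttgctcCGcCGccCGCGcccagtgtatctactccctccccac
The 4 Otx2 windows held 9, 14, 8 and 6 CG dinucleotides, with 14 in the internal window and 6, the lowest of the 11, in the outermost one. The Sox1 window held 29, the highest of the 11 and a number exceeded in 5.94% of all windows. The median over all windows was 6. Methylation was not measured.

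The labels of the samples were first set against marker genes. Of 13 pluripotency markers 12 were higher in the 3 lines than in MEF, with a median of 5.87 log2. Pou5f1, a central pluripotency factor, stood at 6.30 log2. Fibroblast markers ran the other way, with a median of -3.43 log2, and all 17 lay below MEF in each line. Called lower in limma's test, described next, were 11 of 17. That count was 2 without iPS 178B5, 6 without iPS 492B4 and 17 without ES. Over all genes 3512 of 19938 (17.6%) were called in limma's test, which asked for 1 log2 or more together with an adjusted p below 0.05. The split was 1576 higher (7.9%) and 1936 lower (9.71%), or 1129 higher and 2952 lower once the arrays were centred on 10 housekeeping genes (reference centring). The count over all genes called also changed with a line left out, falling most without iPS 178B5 and rising without ES. The median gene lay -0.13 log2 from MEF in iPS 492B4, -0.11 log2 in iPS 178B5 and -0.06 log2 in ES. Reference centring moved these medians to -0.44, -0.38 and -0.32 log2.

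The comparison with MEF asked which of these factors separate pluripotent cells from fibroblasts. Otx2 and Zic5 rose in the 3 lines, by 4.88 ± 0.53 and 1.59 ± 0.37 log2 (SD, n = 3 lines). The Zic5 value averages 2 probe sets that disagreed. By probe set 10422504 alone Zic5 was -0.02 log2 from MEF in iPS 492B4 and 0.23 log2 above it on average. The counts that follow use the averaged value. On it the rises of both Otx2 and Zic5 were past the threshold. That is 2 of 10 genes called higher (7.9% of all genes) and 0 called lower (9.71%), beside 17.6% called in either direction. The median of the 10 genes was 0.51 log2, against -0.10 log2 over all genes. All 3 lines lay above MEF for 7 of the 10 genes, as they did for 30.1% of all genes, and below MEF for 2 (47.7% of all genes). By single arrays, 3 of the 10 were past 1 log2 in iPS 492B4 (23.4% of all genes), 2 of them higher (11.4%) and 1 lower (12%), and all 3 lines were above MEF by 1 log2 for 2 genes (7.03%). In iPS 178B5 4 were past it (21.1%), all higher (10%), with 0 lower (11.1%), and in ES 4 (21.5%), all higher (9.91%), with 0 lower (11.6%). Below MEF by any amount were 3 genes in iPS 492B4 (60.6% of all genes), 2 in iPS 178B5 (60.4%) and 3 in ES (56.9%).

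**Figure D1:**
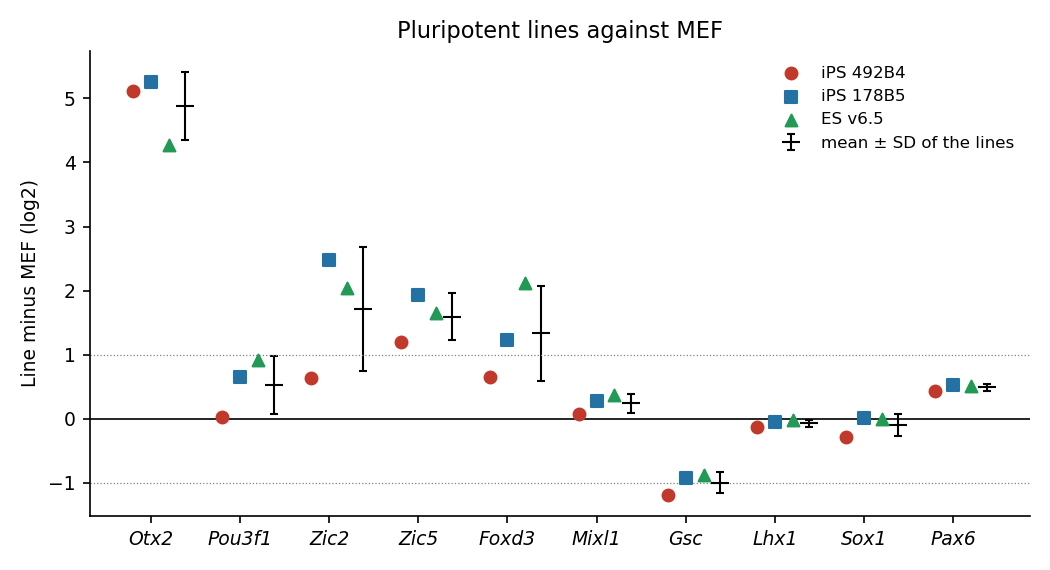
Difference of each pluripotent line from MEF (log2, y axis) for the 10 genes; symbols are single arrays, the black bar is the mean ± SD of the 3 lines and dotted lines mark 1 log2 in either direction. Otx2 lies above 4 log2 in every line, while Lhx1 and Sox1 lie close to 0.

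Among the epiblast factors, Otx2 encodes a homeodomain protein needed for the head and for leaving the naive state. Its deposited values were 0.42 in iPS 492B4, 0.56 in iPS 178B5 and -0.42 in ES, against -4.70 in MEF (log2, centred). The lines lay within 0.98 log2 of each other and far above MEF. In folds, Otx2 was 34.7 times MEF in iPS 492B4, 38.3 times in iPS 178B5 and 19.4 times in ES. The mean rise of 4.88 log2 had an adjusted p of 0.00679 in limma's test. Only 0.331% of genes differed more in size between iPS 492B4 and MEF, 0.236% between iPS 178B5 and MEF, and 0.341% between ES and MEF. Quantile normalization of the centred columns gives the MEF column the same spread as the others. It narrows the MEF column and widens those of the lines, so fewer calls against MEF follow from the method itself. Under it Otx2 stood at 2.65 log2 (adjusted p = 0.78 in limma's test). Limma then called 0 of all genes (1269 at an unadjusted p under 0.05).

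Pou3f1, also called Oct6, is a POU-domain factor of the epiblast and later of glia and neurons. It stood at -0.32 in iPS 492B4, 0.32 in iPS 178B5 and 0.57 in ES, against -0.34 in MEF. The 492B4 array was at the MEF value, 0.03 log2 from it, and 178B5 and ES were 0.66 and 0.91 log2 above it. The mean of 0.53 ± 0.46 log2 did not pass the test (adjusted p = 0.378). Under reference centring the 492B4 difference was -0.29 log2, and under quantile normalization -0.25 log2.

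Foxd3, a forkhead factor known for keeping the epiblast alive and for the neural crest, read -0.29 in iPS 492B4, 0.29 in iPS 178B5 and 1.19 in ES, against -0.94 in MEF. Every line was above MEF, by 0.65 log2 in iPS 492B4, 1.23 log2 in iPS 178B5 and 2.13 log2 in ES. Their spread was wide, and the mean of 1.34 ± 0.74 log2 did not pass (adjusted p = 0.186).

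Zic2, a zinc finger factor needed for the forebrain, read -0.70 in iPS 492B4, 1.14 in iPS 178B5 and 0.70 in ES, against -1.34 in MEF. The lines differed more among themselves than for any other of the 10 genes. Relative to MEF, Zic2 was 5.55 times higher in iPS 178B5 and 4.10 times higher in ES, but 1.55 times higher in iPS 492B4, where quantile normalization turned the sign (-0.41 log2). The mean difference of 1.71 ± 0.96 log2 did not pass (adjusted p = 0.186). On leaving out iPS 492B4 it was 2.25 log2 and passed (adjusted p = 0.0242).

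Zic5 lies next to Zic2 in the mouse genome, and both act in neural tube and neural crest development. Its probe sets disagreed. Probe set 10376241 read -0.26 in iPS 492B4, 0.86 in iPS 178B5 and 0.26 in ES, against -2.67 in MEF. Probe set 10422504 read -0.18, 0.16 and 0.21 in the same lines, against -0.16 in MEF. The first put the lines 2.96 log2 above MEF on average and the second 0.23 log2. By probe set 10376241 alone Zic5 was called (adjusted p = 0.0174), and by 10422504 alone it was not (adjusted p = 0.492). The averaged value (adjusted p = 0.0302) therefore rests on the first, and leaving out iPS 178B5 ended the call (1.43 log2, adjusted p = 0.075).

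Probe set numbers on this array run largely along the chromosomes. Of the 10 named probe sets nearest in number to 10422504, 9 belong to genes of chromosome 14, where Zic5 lies. Of the 10 nearest to 10376241, 0 do, and all 10 belong to chromosome 11. The annotation gives both the symbol Zic5. Which transcript gives the larger difference was not tested.

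**Figure D2:**
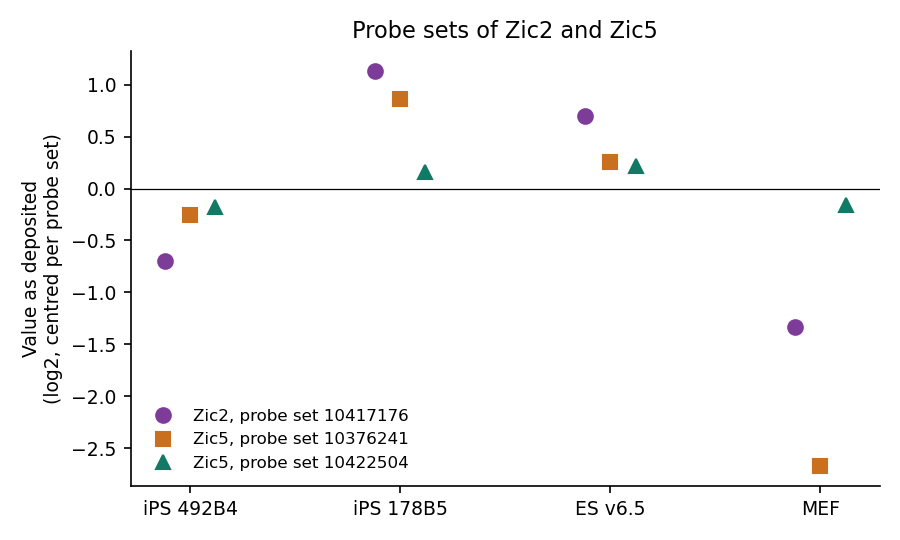
Deposited values (log2, centred per probe set, y axis) of the Zic2 probe set and the 2 Zic5 probe sets on the 4 arrays (x axis); each point is 1 array. Zic2 and probe set 10376241 have their lowest value on the MEF array, while probe set 10422504 lies between -0.18 and 0.21 on every array.

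Of the mesoderm and endoderm factors none was called. Gsc (goosecoid), a homeodomain factor of the gastrula organizer, read -0.28 in iPS 492B4, -0.02 in iPS 178B5 and 0.02 in ES, against 0.90 in MEF. It was the gene of the 10 with its highest value on the MEF array by a wide margin. The mean of -0.99 ± 0.16 log2 had an adjusted p of 0.0259 in limma's test but was just short of the fold minimum. It was called without ES (-1.05 log2, adjusted p = 0.0195) and under reference centring (-1.28 log2, adjusted p = 0.0132).

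Mixl1, a homeobox gene of the primitive streak, lay 0.08 log2 above MEF in iPS 492B4, 0.28 log2 in iPS 178B5 and 0.37 log2 in ES. Its mean of 0.24 log2 was not called (adjusted p = 0.386) and was -0.04 log2 with reference centring. Lhx1, a LIM homeodomain factor of the head organizer, lay -0.13, -0.05 and -0.02 log2 from MEF in the same order of lines (adjusted p = 0.762 in limma's test). It had the narrowest spread over the 4 arrays of the set, with values between -0.09 and 0.04. Its sign, like that of Sox1, turned in single lines under other scalings.

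Neither neural gene was called. Sox1, one of the earliest markers of the neural plate, lay -0.29 log2 from MEF in iPS 492B4, 0.01 log2 in iPS 178B5 and -0.01 log2 in ES (adjusted p = 0.748 in limma's test). Pax6, a paired-box factor of the eye and forebrain, lay 0.43, 0.53 and 0.52 log2 above MEF in those lines. The Pax6 mean of 0.49 ± 0.06 log2 had an adjusted p of 0.0728 in limma's test and was not called. A small difference of a centred value does not say whether a gene was on in either cell type.

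Between the iPS lines the question was how far 492B4 and 178B5 differ in these factors. All 10 genes were lower in iPS 492B4 than in iPS 178B5, beside 53.1% of all genes, and 492B4 was the lowest of the 3 lines for 9 (42.2% of all genes). The differences ran from -0.08 log2 for Lhx1 to -1.84 log2 for Zic2, with a median of -0.28 log2 against -0.02 log2 over all genes. With 1 array per line there is no test. The direction was the same for all 10 under array-median centring, reference centring and quantile normalization. Both centrings shift all genes of an array alike. Lhx1, the smallest difference, went from -0.08 log2 to -0.07 log2 with array medians and -0.12 log2 with reference centring. Neither shift could therefore turn any of the 10 signs.

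Zic2 alone was past 1 log2, which is 1 of 10 genes beside 0.612% of all genes (0.321% lower, 0.291% higher). It was 3.58 times lower in iPS 492B4, the sixth lowest difference of 19938 genes (rank 6). Zic5 was next at -0.73 log2 (by probe set, -1.12 log2 for 10376241 and -0.34 log2 for 10422504), followed by Pou3f1 at -0.63 log2 and Foxd3 at -0.58 log2. Of all genes, 2.18% differed by more than Zic5, 3.52% by more than Pou3f1 and 4.86% by more than Foxd3. The other 6 genes lay between -0.08 and -0.30 log2, and Otx2 among them was at -0.14 log2, a size exceeded by 50.4% of genes.

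**Figure D3:**
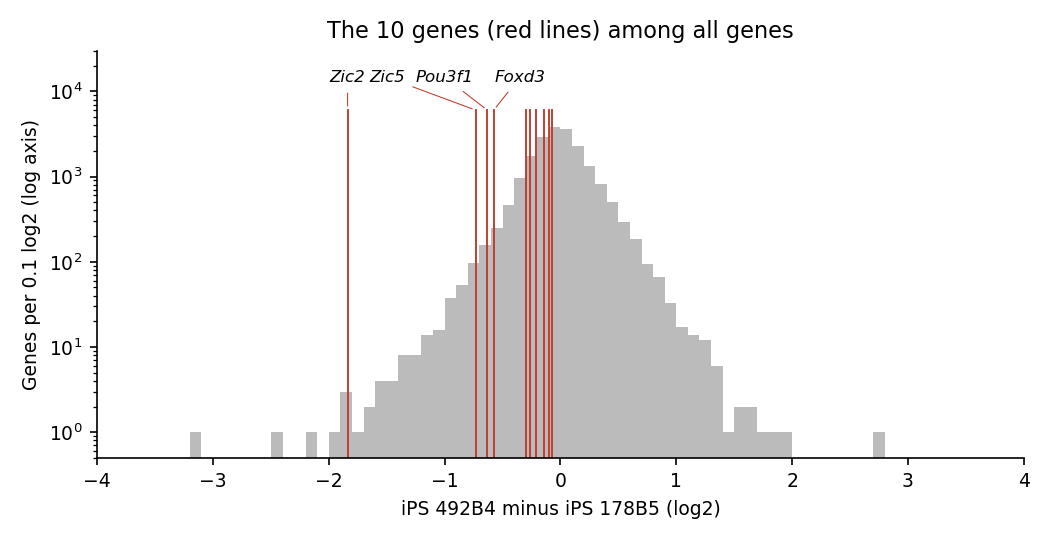
Number of genes per 0.1 log2 (log axis) against their difference iPS 492B4 minus iPS 178B5 (log2); grey bars are all 19938 genes and red lines the 10 genes. Every red line is left of 0, Zic2 at -1.84 log2 lies in the sparse tail, and Zic5, Pou3f1 and Foxd3 lie on the left flank.

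Related lists, which share genes with the 10, were also mostly lower in iPS 492B4 than in iPS 178B5. This held for 22 of 25 primed epiblast genes and 25 of 31 streak, mesoderm and endoderm genes. It also held for 25 of 32 neural genes and 15 of 19 family relatives, beside 53.1% of all genes. The primed list holds Otx2, Pou3f1, Foxd3 and Zic2 of the 10, and the streak list Mixl1, Gsc and Lhx1. The neural list holds Sox1, Pax6, Foxd3, Zic2 and Zic5, while the family relatives are other genes. The list medians were -0.19, -0.19, -0.17 and -0.11 log2, against -0.02 log2 over all genes. Besides Zic2 the only genes of these lists past 1 log2 were Lefty1 (-1.14 log2) and Lefty2 (-1.02 log2), secreted inhibitors of Nodal. In the naive list 9 of 15 genes were higher in 492B4, with a median of 0.13 log2. Primitive endoderm markers also differed between these arrays, with 12 of 14 lower in 492B4 and a median of -0.56 log2. Fibroblast markers were lower for 14 of 17, with a median of -0.29 log2. The part of these cell types in the differences of the 10 genes was not tested.

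Against ES, the comparison asked how each reprogrammed line differs from the embryo-derived one. In iPS 492B4 2 of the 10 genes were past 1 log2, beside 4.73% of all genes. Both were lower, beside 2.2% of all genes lower and 2.53% higher. In iPS 178B5 0 were past it, beside 2.75% of all genes (1.43% higher, 1.32% lower). Below ES by any amount were 9 of the 10 in iPS 492B4 (59.1% of all genes) and 5 in iPS 178B5 (57.5%), where the signs of Gsc, Lhx1 and Pax6 turned with the scaling. Foxd3 was -1.47 log2 from ES in iPS 492B4 and -0.90 log2 in iPS 178B5, so ES had the highest Foxd3 value of the 4 arrays. Zic2 was -1.40 log2 from ES in iPS 492B4 but 0.44 log2 above it in iPS 178B5. These comparisons share the ES array.

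Otx2 ran the other way. It was 0.84 log2 above ES in iPS 492B4 and 0.98 log2 above it in iPS 178B5, or 1.79 and 1.97 times the ES value. Pou3f1 was -0.88 log2 from ES in iPS 492B4 and -0.25 log2 in iPS 178B5. Zic5 was -0.45 log2 from ES in iPS 492B4 and 0.27 log2 above it in iPS 178B5. Mixl1, Gsc, Lhx1, Sox1 and Pax6 lay within 0.30 log2 of ES in both lines.

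**Figure D4:**
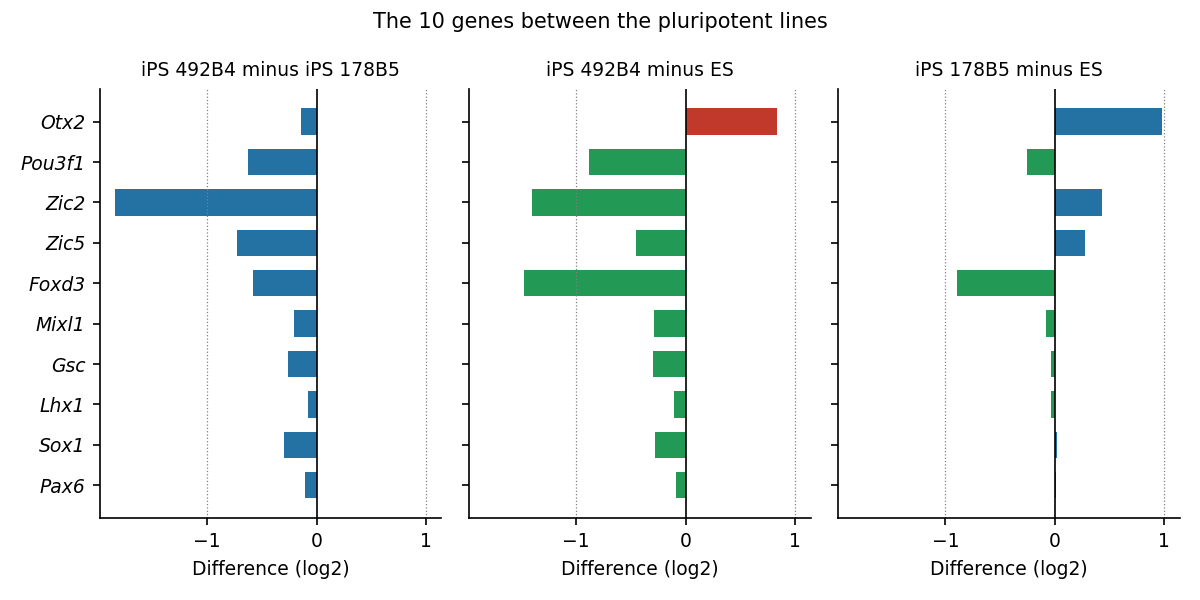
Differences between pairs of pluripotent lines (log2, x axes) for the 10 genes; each bar is 1 array minus another, coloured by the line with the higher value, with dotted lines at 1 log2 in either direction. All bars of the left panel point to iPS 178B5, while against ES Otx2 points to the iPS lines and Foxd3 to ES.

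In limma's fit with the groups iPS, ES and MEF, 0 of the 10 genes and 0 of all genes (0%) were called for iPS minus ES. At an unadjusted p under 0.05 there were 2 of the 10 (Otx2 and Foxd3) and 3079 of all genes (15.4%). Otx2 stood at 0.91 log2 (adjusted p = 0.162) and Foxd3 at -1.19 log2 (adjusted p = 0.233). The fit's spread came from the iPS pair, and the lone ES array was assumed to vary like it. The same arrays differed in other cell type markers. Fibroblast markers were lower than in ES for 16 of 17 in iPS 492B4 (median -1.95 log2) and 17 of 17 in iPS 178B5 (median -1.57 log2), and primitive endoderm markers were higher for 12 of 14 (median 1.10 log2) and 13 of 14 (median 1.55 log2). Their part in the Otx2 and Foxd3 differences was not tested.

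How much the 3 pluripotent lines varied differed widely among the 10 genes. The range over the lines was 1.84 log2 for Zic2, 1.47 log2 for Foxd3, 0.98 log2 for Otx2, 0.88 log2 for Pou3f1 and 0.73 log2 for Zic5. For the mesoderm, endoderm and neural genes it was between 0.10 and 0.30 log2. The median over all genes was 0.30 log2, and 5.59% of genes reached 1 log2, as did 2 of the 10. Zic5 did not on its averaged value, but did by probe set 10376241 alone (-1.12 log2 between the iPS lines). A wider range than that of Zic2 was found for 0.958% of genes, and than that of Foxd3 for 1.84%.

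Likeness of pattern was measured as the root mean square distance between the 3 differences from MEF. Otx2 had no gene within 0.25 log2. Its nearest were H2ac1 (distance 0.28), Gm6083 (0.33) and Zfp640 (0.38). Zic2 had 2 genes within 0.25 log2, 5830417I10Rik (0.24) and Bmerb1 (0.25), with Gm10139 next at 0.30. Foxd3 had 15 such genes, led by D1Pas1 (0.12), Mir17hg (0.13) and Gm24463 (0.14). Zic5, by the average of its 2 probe sets, which disagreed, had 35, led by Ttyh1, Fam178b and Them6. Insm1, at 0.01, was nearest to Pou3f1. The number of genes within 0.25 log2 was 152 for Pou3f1, 755 for Gsc, 1426 for Pax6, 2272 for Mixl1, 6129 for Sox1 and 6691 for Lhx1. The distance is a fixed one, so genes near MEF, where most genes lie, have many neighbours and genes far from it few. The counts therefore do not say how particular a pattern is. With 3 values per gene, likeness describes these arrays only.

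Of 19 measured family relatives of the 10 genes 1 was called higher than MEF and 3 were called lower, with a median of -0.33 log2. Of all genes 7.9% were called higher and 9.71% lower. Sox2, a relative of Sox1 and a core pluripotency factor, rose by 6.18 log2. Foxd1, a relative of Foxd3 known from kidney stroma, fell by 1.86 log2, and Lhx2, a LIM homeodomain gene of forebrain and limb, fell by 1.49 log2. Zic1, a neural relative of Zic2, fell by 1.12 log2. Fewer of all genes were called when iPS 178B5 was left out. Leaving out iPS 178B5 ended the calls of Lhx2 (adjusted p = 0.0519) and Zic1 (adjusted p = 0.0928), so that 1 relative was lower. Otx1, the closest relative of Otx2, stood at 0.17 log2 and Sox3 at 0.03 log2. The relatives of Pou3f1 stood at -0.06 log2 (Pou3f2), -0.70 log2 (Pou3f3) and -0.44 log2 (Pou3f4). These 5 were not called.

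In the primed and formative epiblast list 14 of 25 were called higher and 2 called lower than MEF, beside 7.9% and 9.71% of all genes. The list median was 1.71 log2. Fewer of all genes were called without iPS 178B5, as set out above. Tdgf1, the Nodal co-receptor, rose by 7.22 log2, Krt18, an epithelial keratin, by 3.75 log2, and Dnmt3b, a DNA methyltransferase that increases in the primed state, by 3.52 log2. Cdh2, which encodes N-cadherin and is high in fibroblasts, fell by 2.76 log2. Fgf5, a growth factor used to mark the primed epiblast, fell by 1.35 log2. Without iPS 178B5 their differences were as large, at -2.84 log2 for Cdh2 and -1.36 log2 for Fgf5. They were not called there (adjusted p = 0.079 and 0.131), and the list had 11 called higher and 0 called lower. Without ES, also 1 array fewer, both stayed called, at -3.03 and -1.53 log2. The Fgf5 call also ended on leaving out iPS 492B4 (adjusted p = 0.0507), under array-median centring (0.0525) and when probe sets of several symbols were added (0.0501).

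The list of the primitive streak, mesoderm and endoderm, with 31 measured genes, had 2 called higher and 4 called lower and a median of -0.10 log2. Beside these stand 7.9% of all genes called higher and 9.71% called lower. Hhex, an early endoderm factor, rose by 1.51 log2 and Hand1, a mesoderm and trophoblast factor, by 1.34 log2. Besides Cdh2 the falls were Pdgfra, a mesenchymal receptor, by 2.05 log2, Snai1, a driver of the mesenchymal transition, by 1.71 log2, and Chrd, a BMP inhibitor, by 1.34 log2. With a line left out, the count over all genes called fell for iPS 178B5 and iPS 492B4 and rose for ES. Leaving out iPS 178B5 gave 0 higher and 2 lower, leaving out iPS 492B4 gave 2 and 2, and leaving out ES gave 6 and 5. The calls of Chrd, Hhex and Hand1 ended in the first case (adjusted p = 0.0582, 0.0525 and 0.0532), as did that of Cdh2, and those of Pdgfra and Snai1 in the second (0.0725 and 0.0873). Array-median centring also ended the Snai1 call (0.0511).

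Of 32 measured neural ectoderm and neural crest genes 1 was called higher and 7 were called lower, beside 7.9% and 9.71% of all genes. The list median was -0.20 log2. The 1 higher was Zic5, by the average of its 2 probe sets, which disagreed. Ncam1, a neural adhesion molecule, fell by 2.49 log2, Irx3, a patterning factor, by 2.32 log2, and Tfap2a, of the neural crest and surface ectoderm, by 1.66 log2. With a line left out, the fewest of all genes too were called without iPS 178B5. Leaving out iPS 178B5 gave 0 higher and 1 lower and ended the calls of Ncam1 and Tfap2a (adjusted p = 0.085 and 0.097). Leaving out iPS 492B4 gave 3 higher and 6 lower, without Ncam1 (0.0765). Naive state genes had 13 of 15 called higher and 0 called lower, with a median of 4.10 log2 and Nanog at 6.00 log2.

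**Figure D5:**
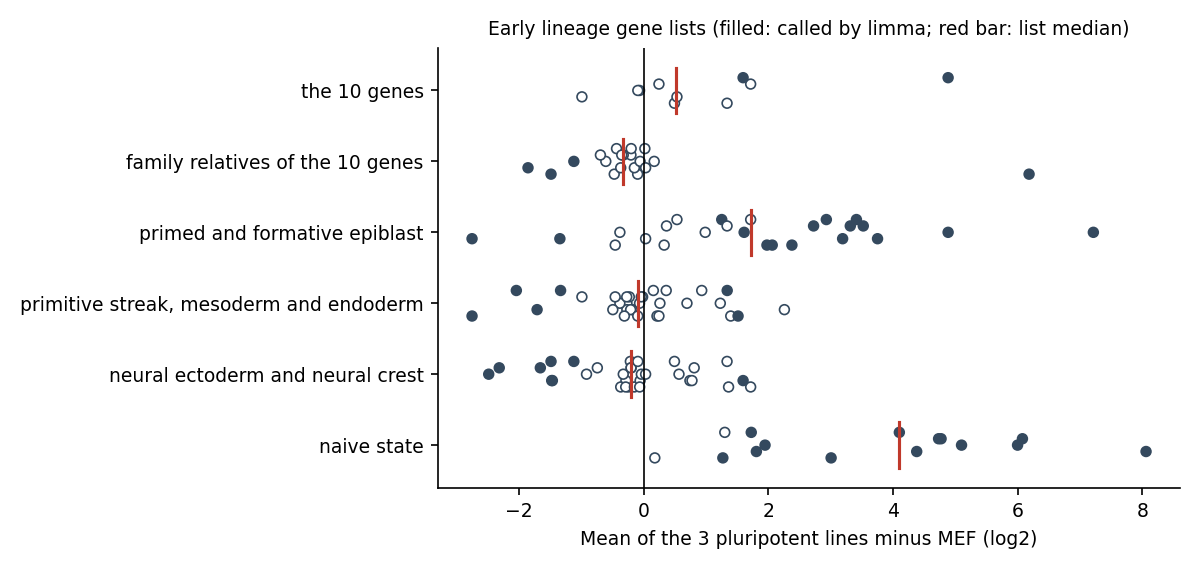
Mean difference of the 3 pluripotent lines from MEF (log2, x axis) for each measured gene of 6 lists; filled circles were called by limma, open circles were not, and red bars are list medians. The naive and primed lists extend to the right, while the relatives, the streak list and the neural list centre near 0.

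Between the lines, other genes of these lists were past 1 log2. Olig2, a neural progenitor factor, was -3.33 log2 from ES in iPS 492B4 and -3.46 log2 in iPS 178B5. Nes, an intermediate filament gene of neural progenitors, was 1.02 log2 above ES in iPS 178B5. Ncam1 lay below ES in both iPS lines, at -1.04 log2 for 492B4 and -1.19 log2 for 178B5. Gbx2, of the hindbrain and of naive cells, Lef1, a Wnt effector, and Cdh2 were -1.45, -1.29 and -1.28 log2 from ES in iPS 492B4. Dnmt3b was also past 1 log2 in that comparison, at -1.02 log2. Krt18 and Nog, a BMP inhibitor, were 1.01 and 1.04 log2 above ES in iPS 178B5. The endoderm factors Gata6, Gata4 and Sox17 were 2.75, 2.17 and 1.35 log2 above ES in iPS 492B4 and 3.41, 3.01 and 2.32 log2 above it in iPS 178B5. In the naive list Nr0b1 alone was past 1 log2, at -1.17 log2 from ES in iPS 492B4.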

How the data were processed

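The authors deposited 1 table of log2-scale values for 28853 probe sets on 4 arrays. Per the submitters' processing notes they used GCRMA (background correction, normalization and summary of probes), with no version stated. The base of the log is unstated too and was taken as 2. Each of the 28853 probe sets had a median of 0 across its 4 values (tolerance 1e-06), so the table holds no levels. Probe sets with 1 symbol in the platform annotation (21789, against 1621 with several and 5443 with none) were averaged per gene, giving 19938 genes. Of these probe sets 21698 matched the RefSeq gene table by identifier.

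Limma 3.58.1 in R 4.3.3 compared the 3 lines with MEF (2 residual degrees of freedom, the lone MEF array assumed to vary like the lines). A fit with 3 groups (1 residual degree of freedom) compared iPS with ES. Adjustment was by Benjamini-Hochberg over all genes, with calls at an adjusted p under 0.05 and at least 1 log2. The fit was tested on simulated data in which the MEF array was given the same spread as the lines. That assumption itself was therefore not tested. Single arrays were compared by value. Named were the 10 genes, up to 4 called genes per list and direction, up to 4 genes past 1 log2 per lineage list and pair of lines, and the 3 nearest genes in pattern. Otx1, Sox3 and Pou3f2 to Pou3f4 were named as relatives after their values were seen. The genes, lists and tests were chosen with earlier results of these data known. The alternatives covered scaling, probe set rules, fold minimum, moderation and left-out lines.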

Additional observations from a re-analysis of the deposited data

Results flagged for a closer look

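Of 173 genes measured over all lists 16 had both iPS lines on one side of MEF and ES on the other. The 8 of them not named here lay within 0.241 log2 of MEF in ES. Olig2 was -0.33 log2 from MEF in iPS 492B4, -0.45 log2 in iPS 178B5 and 3.003 log2 in ES. Gata6 was 1.92, 2.58 and -0.82 log2 from MEF in the same order, Sox17 0.82, 1.78 and -0.53 log2, Cubn 3.12, 2.08 and -0.53 log2, and Nog 0.46, 0.68 and -0.36 log2. Gap43 was -1.45, -0.27 and 0.34 log2 from MEF, Sox3 -0.11, -0.02 and 0.22 log2, and Pou3f2 -0.13, -0.07 and 0.0207 log2. In limma's 3-group fit the iPS minus ES differences of these 8 genes were not called, with adjusted p between 0.0529 (Olig2) and 0.714 (Pou3f2). None of the 10 early lineage factors showed this pattern.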

How the results depend on the processing

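The count of genes called against MEF was 3512. It was 0 with quantile normalization, 1165 at a fold minimum of 2 log2, and between 1357 (without iPS 178B5) and 4216 with 1 line left out. Of the 10 genes 2 were called. Quantile normalization gave 0 (1 at an unadjusted p under 0.05), Zic5 by probe set 10422504 alone gave 1, a fold minimum of 2 log2 gave 1, and leaving out a line gave 1 to 3. Quantile normalization equalizes column spreads that were 0.938 for MEF and 0.198 to 0.289 for the lines. That narrows the MEF column and widens those of the lines, so its 0 calls against MEF do not test single genes. Otx2 was between 4.60 and 5.19 log2 and called under each other scaling, probe set rule, moderation and left-out line tried. For iPS minus ES 0 of the 10 were called under all settings tried.

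Between single arrays the count past the fold changed as follows. For iPS 492B4 minus iPS 178B5 it was 1, and 4 with quantile normalization or a fold minimum of 0.5 log2, 2 with the widest probe set or Zic5 by probe set 10376241 alone, and 0 at 2 log2. For iPS 492B4 minus ES it was 2, and 4 with quantile normalization or at 0.5 log2 and 0 at 2 log2. For iPS 178B5 minus ES it was 0, and 1 with array medians, 2 with quantile normalization and 2 at 0.5 log2. Against MEF it was 3 for iPS 492B4, and 1 with quantile normalization, 5 at 0.5 log2 and 1 at 2 log2. It was 4 for iPS 178B5 (7 at 0.5 log2, 2 at 2 log2) and 4 for ES (7 at 0.5 log2). A lower fold minimum cannot reduce such a count, for these genes or for all genes. Quantile normalization changes the spread of the columns for all genes. The shares of all genes past the fold at these other settings are not given here. The changed counts therefore do not say whether the early lineage factors differ from other genes.

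Signs turned for Mixl1 with reference centring (-0.0402 log2), Lhx1 with array medians (0.0049 log2) and Sox1 with 1 line left out (from -0.15 log2 to 0.00010 log2, the last without iPS 492B4). Of 102 values of single genes under alternatives, 92 kept their direction and their side of the threshold. Many of the 102 could not turn a direction, so the count does not measure robustness. Other moderation leaves a gene's difference unchanged. Adding probe sets of several symbols changed none of the differences, and the widest probe set changed that of Zic5 only. No paired analysis was possible because the labels give no replicate numbers. The planned filter on dim probe sets was not run because centred values hold no level. Choosing Zic5 probe sets singly was added after seeing the data. Reference centring shifted the median of all genes against MEF to -0.44 log2 in iPS 492B4, -0.38 log2 in iPS 178B5 and -0.32 log2 in ES.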
